A study of Homo sapiens and Mus musculus with 74 samples.

Results

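Complex I of the mitochondrial respiratory chain was examined through the genes of its nuclear-encoded subunits in mouse kidney and brain. Protein-coding genes of the GENCODE M21 annotation were taken when their symbol began with Nduf, went on with a, b, c, s, v or ab and then had a digit, so that the Ndufaf assembly factors stayed out. Each gene was represented by the transcript with the longest protein. The choice gave 38 genes of the 21908 coding genes with a transcript in the count table, and no measured value entered it. The series compared translation in mice and cells without RPL41, a very short and basic ribosomal protein that is now placed in the small subunit despite its name. Ribosome profiling (Ribo-seq, which sequences the stretch of mRNA covered by 1 ribosome) and poly(A) RNA-seq were done on kidney and brain, and disome-seq (which sequences the longer stretch covered by a pair of stacked ribosomes) on kidney. The 30 mouse libraries fell into 10 groups of 3, wild type (WT, Rpl41 +/+) or knockout (KO, Rpl41 -/-) for each tissue and assay. The 44 HEK293T samples of the series were not analysed here.

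All mice were 10-week-old males of the C57BL/6J line. The KO allele, made by CRISPR-Cas9 ribonucleoproteins electroporated into zygotes, lacks the whole coding sequence of Rpl41 in every cell of the body, so the tissues came from animals that had developed without it. The number of lines or founders is not given in the sources used here. The labels do not say whether replicates came from separate animals, so p-values measure the spread between these libraries. Rpl41 was counted 3695 to 7502 times in WT and 3 to 8 times in KO kidney RNA-seq libraries, and 8981 to 12199 times in WT and 6 to 12 times in KO brain RNA-seq libraries. Depth was 9498663 to 42452425 counts in Ribo-seq, 44998381 to 123745890 in RNA-seq and 1187636 to 3018963 in disome-seq libraries. KO kidney RNA-seq replicates 2 and 3 stood apart, with 1.76% and 1.67% of their counts on mitochondrial rRNA against 0.436% to 0.962% in the other kidney RNA-seq libraries, and with 83287 and 86071 transcripts detected against 91222 to 93091. The tissue labels fitted their markers, since summed neuron markers reached at most 0.43 CPM (counts scaled to a common library total) in kidney.

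Complex I takes electrons from NADH, passes them along a chain of iron-sulfur clusters to ubiquinone, and pumps protons across the inner mitochondrial membrane. It has a peripheral arm in the matrix, where the redox chemistry takes place, and a membrane arm whose proton-pumping core is encoded by mitochondrial DNA, so that its assembly needs products of both genomes. The core subunits have bacterial relatives, while the accessory subunits form a shell around the core and are needed for assembly and stability. Kidney tubules and neurons both rely on oxidative phosphorylation.

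Of the 38 genes, 7 encode core subunits of the peripheral arm (among them Ndufs1, Ndufs3, Ndufs7, Ndufs8, Ndufv1 and Ndufv2), 9 encode accessory subunits of that arm, 9 accessory subunits of the proximal membrane arm and 10, all of the Ndufb series, accessory subunits of the distal membrane arm. Ndufab1 encodes the mitochondrial acyl carrier protein, which also serves fatty acid and lipoate synthesis. Ndufa4 keeps its historical name but its protein is found in complex IV, and Ndufa4l2 is its hypoxia-responsive paralogue. The proteins are short, from 70 residues (Ndufa1) to 727 (Ndufs1) with a median of 146.5, against a median of 391 over all coding genes. At most 200 residues were encoded by 28 of the 38 genes, against 16.2% of all coding genes. The genes lie on 15 chromosomes.

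Many of these mRNAs share stretches with transcripts of other genes, often processed pseudogenes, which matters for counting short reads. Every stretch of 28 bases of each coding sequence, about the length of a ribosome footprint, was looked up in the transcripts of other genes. More than 10% of the stretches were shared in 16 genes and none in 11. The gene that shares with Ndufb9 (Gm49356), and some of those that share with Ndufb8 (Gm20538) and Ndufb2 (Gm42420), are annotated as protein-coding. Whether these are separate copies was not tested. The share was 100% for Ndufab1 and Ndufb4, 82.1% for Ndufs5, 76.7% for Ndufa12 and 69.7% for Ndufs3. The first 60 coding bases of Ndufs5 (chr4:123712710-123718202, minus strand), a subunit with paired cysteines on the intermembrane-space side, and of its processed copy BC002163 (chr16:42955631-42955949, plus strand) are shown because no base differs between them. The first 60 coding bases of Ndufs6 (chr13:73319838-73328542, minus strand), a zinc-binding accessory subunit, and bases 2 to 61 of its copy Ndufs6b (chr7:81161397-81161744, minus strand) show instead 4 differing bases, in capitals. A footprint over such a base can tell them apart, but 40.3% of the stretches of the whole Ndufs6 coding sequence were shared. The sequences are from the GENCODE M21 transcripts on GRCm38, written 5′ to 3′.
Ndufs5: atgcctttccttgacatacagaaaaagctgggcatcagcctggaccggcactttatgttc
BC002163: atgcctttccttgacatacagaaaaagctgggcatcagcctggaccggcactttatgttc
Ndufs6: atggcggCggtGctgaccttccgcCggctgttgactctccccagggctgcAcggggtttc
Ndufs6b: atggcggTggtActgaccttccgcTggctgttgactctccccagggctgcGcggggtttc

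The footprint densities of the subunits in WT tissue covered a wide range. Density is given as CPM per kilobase of coding sequence in Ribo-seq, and its median over the 38 genes was 125 in kidney and 79.1 in brain. Ndufa4 had the highest density in both tissues, 546 in kidney and 383 in brain. Ndufa4l2 had the lowest, 11.4 and 9.94. Ndufv3, a subunit of the NADH-binding end with a long and a short protein form, came next to last, counted over its 468-residue form. It stood at 40.4 in kidney and 16.4 in brain. That form had 56.8 CPM in kidney and 23.0 CPM in brain, and the much shorter 104-residue form 39.6 and 19.9 CPM. The low rank of Ndufv3 thus depends on the form counted. In RNA-seq, as CPM per kilobase of transcript, Ndufa4 was again highest (538 in kidney, 191 in brain) and Ndufa4l2 lowest (2.17 and 1.04).

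**Figure D1:**
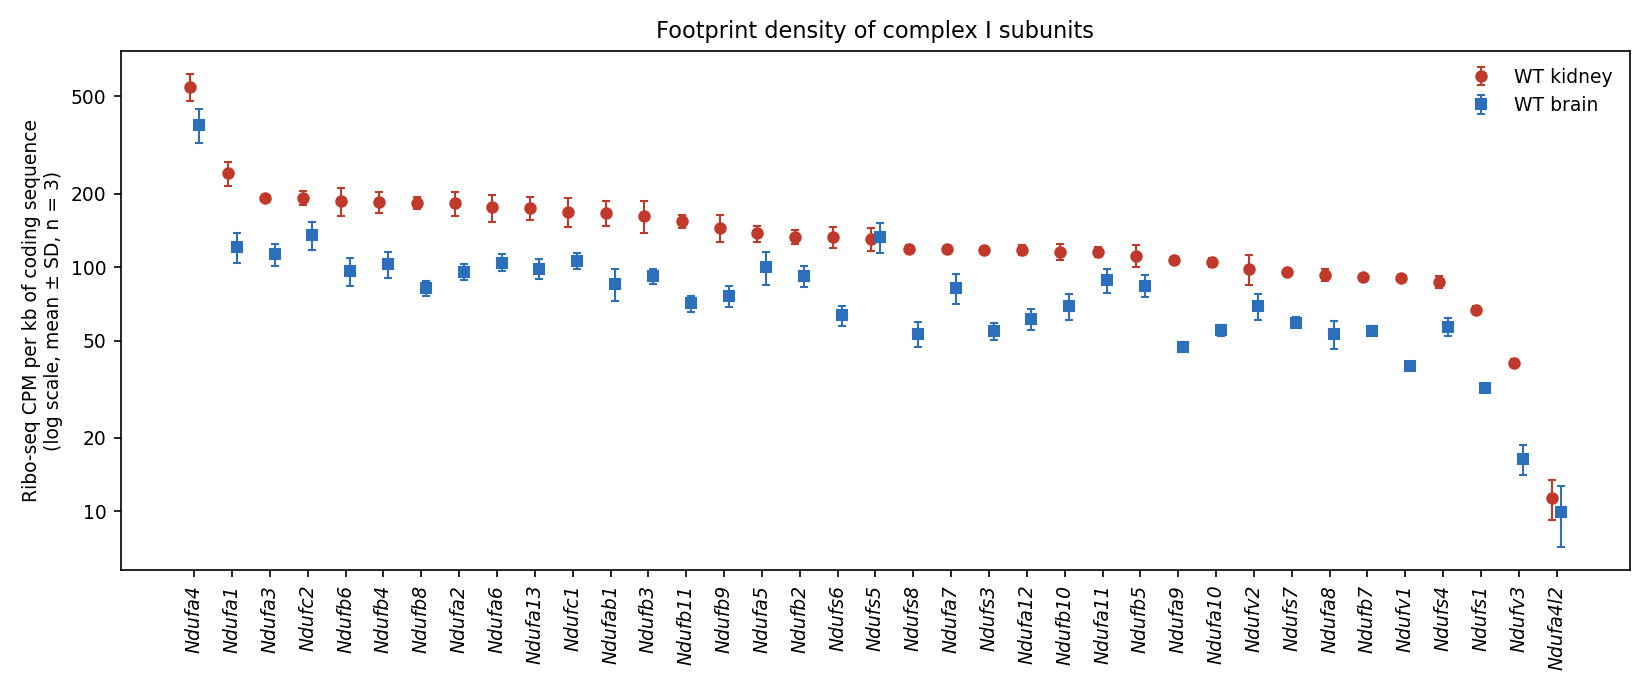
Ribo-seq density in WT kidney and WT brain for 37 of the 38 genes, as CPM per kilobase of coding sequence on a log vertical axis, as the mean and SD of 3 libraries per tissue, with the genes ordered by their kidney density. Ndufa4 is highest in both tissues and Ndufa4l2 lowest, and the kidney mean lies above the brain mean for all plotted genes but Ndufs5. The bars overlap for Ndufs5 and Ndufa4l2.

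In KO kidney a few short complex I subunits had fewer footprints and the largest subunit had more. Ribo-seq counts of 6 genes were lower and of 1 gene, Ndufs1, higher in KO than in WT kidney at an adjusted p under 0.05 (edgeR quasi-likelihood F-test, adjusted by Benjamini-Hochberg across the 75266 transcripts). In the same test 7.76% of all transcripts were called, 3.01% lower and 4.75% higher, or 3.91% and 5.94% of coding genes with 1 transcript each. The scaling decided how all calls split, with 3573 transcripts higher and 2265 lower after trimmed-mean (TMM) scaling, against 1531 and 2543 with library size alone, under which 12 subunit genes were lower and 0 higher. The median log2 fold change of the 38 genes was -0.25, against -0.02 over all coding genes, and 33 of the 38 were negative. The share of all counts that fell on the 38 genes was 0.268% ± 0.0165 in WT and 0.228% ± 0.0064 in KO (SD, n = 3 each).

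Ndufs1 encodes the largest subunit, which carries iron-sulfur clusters at the NADH-binding end of the peripheral arm (chr1:63143596-63176833, minus strand). Its footprints were 141, 146 and 152 CPM in the WT kidney libraries and 180, 187 and 188 CPM in the KO kidney libraries. The groups did not overlap, with KO above WT, and the fitted log2 fold change was 0.41 ± 0.12 (SE, n = 3 per group, edgeR adjusted p = 0.048). A second annotated transcript of Ndufs1 with the same 727 residues gave the same 0.41. Both had close to the same mean in WT kidney (146 and 147 CPM), so the second is no independent support. Shorter annotated forms were all positive but differed: 0.54 (61 residues), 0.39 (62), 0.19 (118), 0.18 (135), 0.11 (79) and 0.09 (19). Of these only the 61-residue form passed.

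Ndufa6, an accessory subunit of the peripheral arm that docks an acyl carrier protein, had 62.1, 66.0 and 78.8 CPM in WT kidney and 47.3, 44.7 and 50.3 CPM in KO kidney. Its log2 fold change was -0.47 ± 0.13 (edgeR adjusted p = 0.043). Ndufb9 encodes a protein of the same LYR family that docks the acyl carrier in the distal membrane arm. Its footprints were 70.2, 73.7 and 88.8 CPM in WT and 53.3, 53.4 and 54.6 CPM in KO kidney, a log2 fold change of -0.46 ± 0.12 (edgeR adjusted p = 0.041). For both genes the KO libraries lay close together and below all WT libraries, while WT replicate 3 was the highest of its group.

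Ndufa2, an accessory subunit with a thioredoxin-like fold, had 49.9, 51.7 and 61.4 CPM in WT and 36.9, 38.9 and 39.5 CPM in KO kidney. Its log2 fold change was -0.43 ± 0.12 (edgeR adjusted p = 0.043). Ndufc1, a small membrane subunit, had 34.7, 36.3 and 44.4 CPM against 26.0, 28.1 and 27.7 CPM, a log2 fold change of -0.42 ± 0.12 (edgeR adjusted p = 0.048). These genes again had their highest WT value in replicate 3, and no overlap between the groups. Ndufs6, whose sequence is shown above, had 44.9, 48.7 and 54.6 CPM in WT and 34.5, 34.2 and 36.9 CPM in KO kidney, with a log2 fold change of -0.42 ± 0.12 (edgeR adjusted p = 0.047). Ndufb7, a distal membrane-arm subunit with paired cysteines, fell outside the naming rule and is given because it completes the 6. Its WT libraries were the tightest, at 37.9, 37.5 and 37.1 CPM, and its KO libraries had 26.9, 27.7 and 28.0 CPM, a log2 fold change of -0.38 ± 0.10 (edgeR adjusted p = 0.036).

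These calls lay near the threshold. The shared stretches made up 40.3% of Ndufs6, 34.3% of Ndufb9 and 29.35% of Ndufc1. They made up 3.91% of Ndufb7, 2.22% of Ndufa2, 1.91% of Ndufa6 and 0% of Ndufs1. Over the 13 alternative fits each of the 7 genes kept its sign in all 13 and was called in 5 or 6 of them, with adjusted p from 0.0056 to 0.183 for Ndufs1 and from 0.00899 to 0.177 for Ndufa6. When counts were first summed over the coding transcripts of each gene, 0 of the 38 genes passed, with 17 at an unadjusted p under 0.05, and DESeq2 on the transcripts called 1 higher and 5 lower, without Ndufc1. Leaving out 1 library left 5 genes lower and none higher without WT replicate 1, Ndufs1 higher and Ndufb7 lower without WT replicate 3, and 0 without WT replicate 2 or any 1 of KO replicates 1, 2 and 3. Shares of all transcripts called by DESeq2, by gene sums or without 1 library are not given here.

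**Figure D2:**
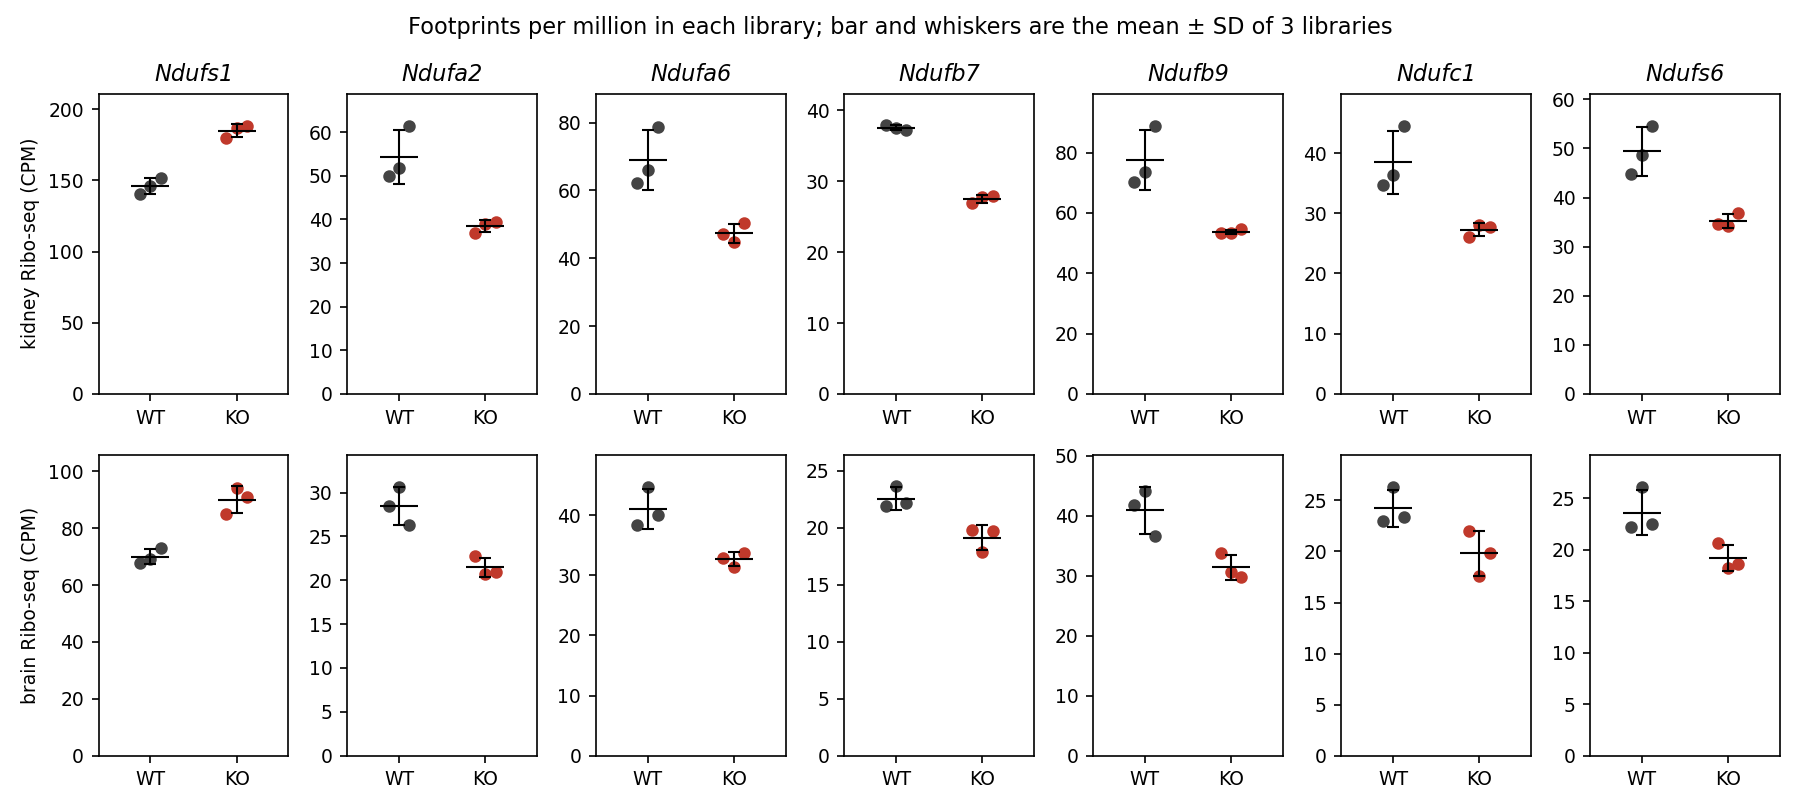
Ribo-seq CPM of Ndufs1 and of the 6 genes that were lower in KO kidney, with 1 point per library in WT and KO kidney and WT and KO brain (n = 3 per group) and the mean and SD marked. In kidney the KO points of Ndufs1 lie between 180 and 188 CPM and all WT points at or below 152 CPM, and the other genes show the opposite order.

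By role, the core subunits had a median log2 fold change of -0.10 in kidney Ribo-seq, with Ndufv1 at 0.17, Ndufs7 at -0.10, Ndufs3 at -0.15, Ndufs8 at -0.16 and Ndufv2 at -0.26, and among all core subunits Ndufs1 alone passed the test. Ndufv1 binds NADH and the flavin, and Ndufs7, Ndufs8 and Ndufv2 hold iron-sulfur clusters. The accessory subunits of the peripheral arm had a median of -0.27 with 3 of 9 lower, those of the proximal membrane arm -0.31 with 1 of 9 lower, and those of the distal membrane arm -0.29 with 2 of 10 lower. Ndufab1 stood at -0.18, Ndufa4 at -0.24 and Ndufa4l2 at 0.13, none past the threshold. In 32 of the 38 genes every KO library lay below every WT library, and in 2, Ndufs1 and Ndufv1, above. Over all transcripts the shares were 19.5% below and 9.87% above, and over coding genes 21.7% and 10.3%.

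The accessory subunits also differed among themselves. On the peripheral arm, Ndufa7 (-0.27), Ndufa12 (-0.15), Ndufa5 (-0.13) and Ndufs4 (-0.13) were negative in kidney Ribo-seq without passing, as was Ndufa9 (-0.06), the longest accessory subunit after Ndufv3. Ndufs4 and Ndufs6 are needed to join the NADH-binding end to the rest of the complex. On the proximal membrane arm, Ndufa3 (-0.36), Ndufa8 (-0.35), Ndufs5 (-0.33) and Ndufa13 (-0.31) had the lowest values after Ndufc1, and Ndufa10, at 355 residues the longest of that arm, stood at 0.00. On the distal membrane arm the 10 Ndufb genes, all of at most 200 residues, ranged from -0.46 for Ndufb9 to -0.19 for Ndufb2, with Ndufb3 (-0.40) next to the called genes. In brain Ribo-seq the same 10 genes ranged from -0.36 to -0.15, and in kidney disome-seq from -0.74 to -0.10, with no call.

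In kidney Ribo-seq the subunits lay near other coding genes of their length, with Ndufs1 above them and Ndufv3 below. The 28 genes of at most 200 residues had a median log2 fold change of -0.28 in kidney Ribo-seq, against -0.24 for all 1798 coding genes of that length, and 6 of the 28 were lower against 182 of the 1798 (10.1%). The 10 longer subunits had a median of -0.08, against 0.02 for the longer coding genes. Class medians of all coding genes went from -0.29 at up to 100 residues to 0.26 above 1200 residues. Ndufs1, at 0.41, lay above the upper quartile of its own class of 600 to 800 residues, which was 0.28. Across the 38 genes, which share the same 6 libraries, the fold change and log2 protein length had a Pearson r of 0.61 (Spearman rho 0.44), and 0.48 without Ndufs1. Over 13431 coding genes the values were 0.31 and 0.42. The length of Ndufv3 depends on the form counted: its 468-residue form gave -0.27, its 104-residue form -0.33 and its 86-residue form -0.41, and reads of the shared exons count for more than 1 of them.

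**Figure D3:**
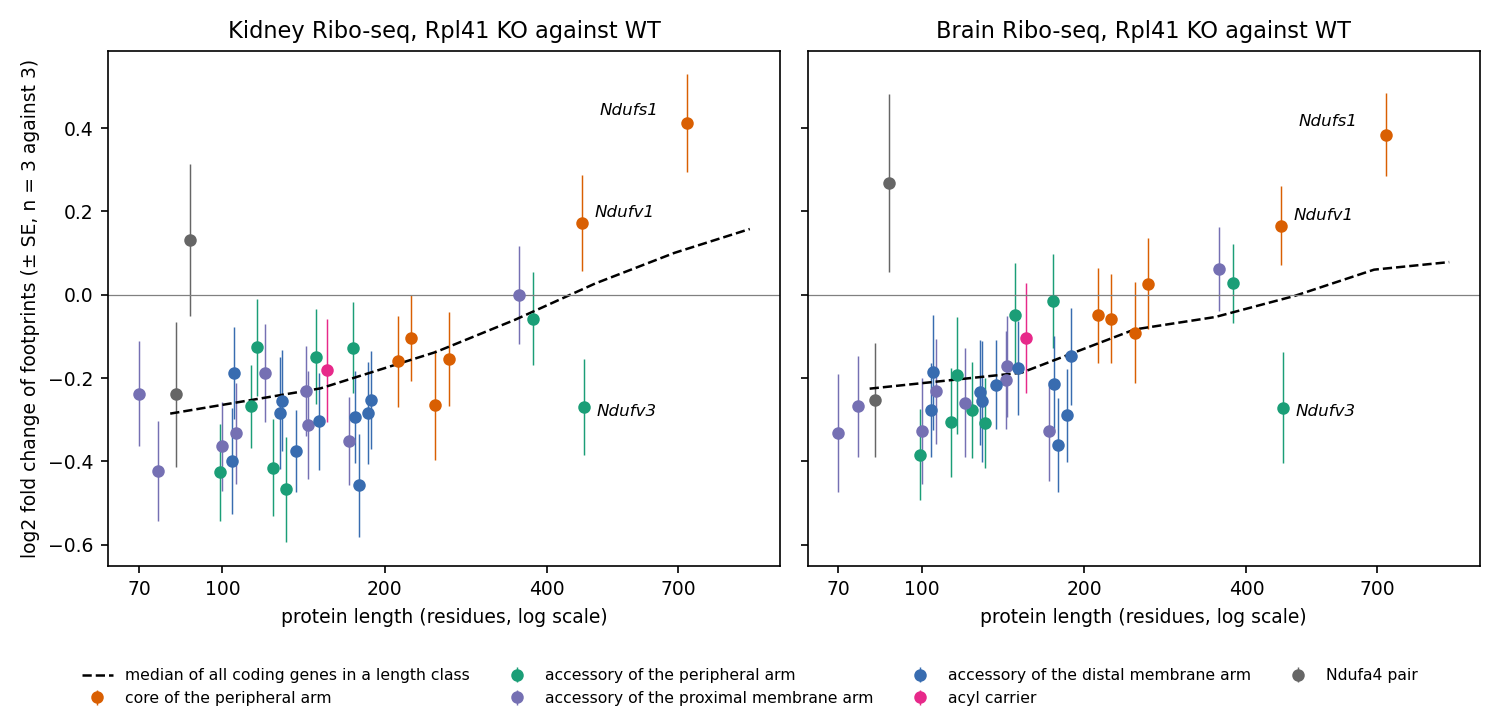
Log2 fold change of Ribo-seq counts, KO against WT, plotted against protein length in residues on a log axis for 37 of the 38 genes in kidney and in brain, with bars for the SE and a dashed line for the median of all coding genes in each length class. In both panels the short subunits other than Ndufa4l2 lie below 0 near the dashed line, Ndufv3 lies below the line, and Ndufs1, the longest, lies highest at 0.41 in kidney and 0.38 in brain.

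In brain Ribo-seq 0 of the 38 genes passed the edgeR test, where 0.0345% of all transcripts were called, 0.00123% higher and 0.0333% lower. An unadjusted p under 0.05 was reached by 12 of the 38, and the share of all transcripts at that p is not given. DESeq2 called 1 gene, Ndufs1, higher (Wald adjusted p = 0.0299), and the share of all transcripts that DESeq2 called is not given. The median log2 fold change was -0.21, against -0.03 over all coding genes. Ndufs1 had 67.8, 69.1 and 72.9 CPM in WT brain and 85.0, 94.1 and 91.1 CPM in KO brain, a log2 fold change of 0.38 ± 0.10 (edgeR adjusted p = 0.215). Ndufa2 had 28.5, 30.6 and 26.3 CPM in WT and 22.7, 20.7 and 21.0 CPM in KO brain, a log2 fold change of -0.38 ± 0.11 (edgeR adjusted p = 0.245). Neither gene had overlapping groups, although neither passed the test. Ndufb9 had 41.8, 44.2 and 36.6 CPM in WT and 33.8, 30.6 and 29.8 CPM in KO brain, a log2 fold change of -0.36 ± 0.11 (edgeR adjusted p = 0.262). All KO libraries lay below all WT libraries for 13 genes, against 10.4% of transcripts, and above them for 3 genes, the core subunits Ndufs1 and Ndufv1 among them, against 8.06%.

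The kidney and brain Ribo-seq comparisons share no library, and the 38 genes had a similar order of fold changes in both. Pearson r across the 38 genes was 0.92 (Spearman rho 0.82), and 36 of 38 had the same sign, while 12411 coding genes gave an r of 0.44 and the same sign in 68.1%. The genes are not independent replicates and share their length and base composition between tissues. The labels do not say whether kidney and brain libraries came from the same mice. A test of the tissue-by-genotype interaction in Ribo-seq called 0 of the 38 genes (edgeR), with 0 at an unadjusted p under 0.05 and 0 by DESeq2, against 0.0767% of all transcripts, 0.0293% higher and 0.0474% lower. The median interaction was -0.09 on the log2 scale.

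Disome footprints in kidney leaned the same way without a call. Of the 37 genes tested, all but Ndufa4l2, edgeR and DESeq2 called 0, where edgeR called 0.201% of all transcripts, 0.0691% higher and 0.132% lower. By edgeR 16 of the 37 had an unadjusted p under 0.05, with the share of all transcripts at that p not given. The median log2 fold change was -0.35, against 0.00 over all coding genes, and 35 of 37 were negative. Ndufa1, a small membrane subunit encoded on the X chromosome, had 46.8, 44.4 and 50.4 CPM in WT and 31.8, 22.1 and 24.4 CPM in KO libraries, a log2 fold change of -0.77 ± 0.19 (edgeR adjusted p = 0.121). It passed with the replicate number as a block (adjusted p = 0.0434), the 1 subunit gene that did. Ndufa8, an intermembrane-space subunit with paired cysteines, had 48.7, 34.1 and 53.6 CPM against 22.8, 25.2 and 26.9 CPM, a log2 fold change of -0.79 ± 0.21 (edgeR adjusted p = 0.147). It passed when WT replicate 2, its lowest WT library, was left out. Ndufb9 had 38.8, 34.8 and 41.6 CPM against 25.8, 18.0 and 21.1 CPM, a log2 fold change of -0.74 ± 0.20 (edgeR adjusted p = 0.156).

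Ndufs1 was again higher in KO among disomes, with 99.8, 100 and 84.8 CPM in WT and 138, 132 and 112 CPM in KO libraries, a log2 fold change of 0.48 ± 0.15 (edgeR adjusted p = 0.21). It was the 1 gene of the 37 whose KO libraries all lay above the WT libraries, against 5.91% of transcripts, and 24 genes lay below, against 11.4%. The other core subunits ranged from -0.52 for Ndufs3 to -0.01 for Ndufv1 and did not pass. Ndufa6, which was lower in kidney Ribo-seq, did not fall among disomes. It had 72.3, 63.3 and 79.2 CPM in WT and 65.8, 68.8 and 81.7 CPM in KO libraries. The disome libraries were the shallowest of the series.

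In kidney RNA-seq edgeR called 0 of the 38 genes, where 0.00992% of all transcripts were called, and the smallest adjusted p was 0.292. An unadjusted p under 0.05 was reached by 24 of the 38, and the share of all transcripts at that p is not given. DESeq2 called 2 higher, Ndufa1 and Ndufs6, with 52 of 13888 coding genes higher. The median log2 fold change was 0.56, against 0.10 over all coding genes, and 36 of 38 were positive. The lean rested on few libraries: leaving out KO replicate 1 gave 22 genes higher and 0 lower, with 1198 higher and 324 lower of 14112 coding genes, while leaving out both KO replicates 2 and 3, the libraries that stood apart, gave 0 called and 0 at an unadjusted p under 0.05, and brought the median above that of all coding genes from 0.46 down to 0.21. The part that mitochondrial rRNA share or library complexity had in the lean was not tested.

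Ndufs6 had 83.8, 98.0 and 68.2 CPM in WT kidney RNA-seq and 114, 159 and 153 CPM in KO, a log2 fold change of 0.94 ± 0.22. Ndufa1 had 97.2, 118 and 86.4 CPM against 129, 203 and 195 CPM, a log2 fold change of 0.98 ± 0.24. Ndufa12, an accessory subunit of the peripheral arm, had 40.0, 49.5 and 39.2 CPM against 53.1, 66.5 and 71.1 CPM, a log2 fold change of 0.74 ± 0.20. All 3 had an edgeR adjusted p of 0.292, and in each KO replicate 1 lay nearest to the WT libraries. Ndufb4, a distal membrane-arm subunit named here because its difference was the largest, had 14.8, 18.3 and 9.33 CPM against 18.4, 37.4 and 36.8 CPM, a log2 fold change of 1.30 ± 0.36 with KO replicate 1 almost level with the highest WT library. It shares 100% of its stretches with other genes, so its counts depend on how reads with several matches were handled.

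The core subunits had smaller differences in kidney RNA-seq, from -0.10 for Ndufs3 through 0.03 for Ndufs1, 0.07 for Ndufv1, 0.24 for Ndufv2 and 0.27 for Ndufs8 to 0.34 for Ndufs7, and none passed. Ndufa4 stood at 0.60, Ndufv3 at 0.65, Ndufa4l2 at 0.17 and Ndufab1 at 0.15. The 28 short subunits had a median of 0.65, against 0.26 for coding genes of that length, and the 10 longer ones 0.17. All KO libraries lay above all WT libraries in 14 genes, against 6.36% of transcripts and 7.96% of coding genes. Within the 38 genes the kidney RNA-seq and Ribo-seq fold changes had a Pearson r of -0.53, with the same sign in 7 of 38, against an r of 0.07 and the same sign in 48.7% over 12613 coding genes. The comparisons share no library, but same-numbered kidney Ribo-seq and RNA-seq libraries deviated together, so they are not independent.

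**Figure D4:**
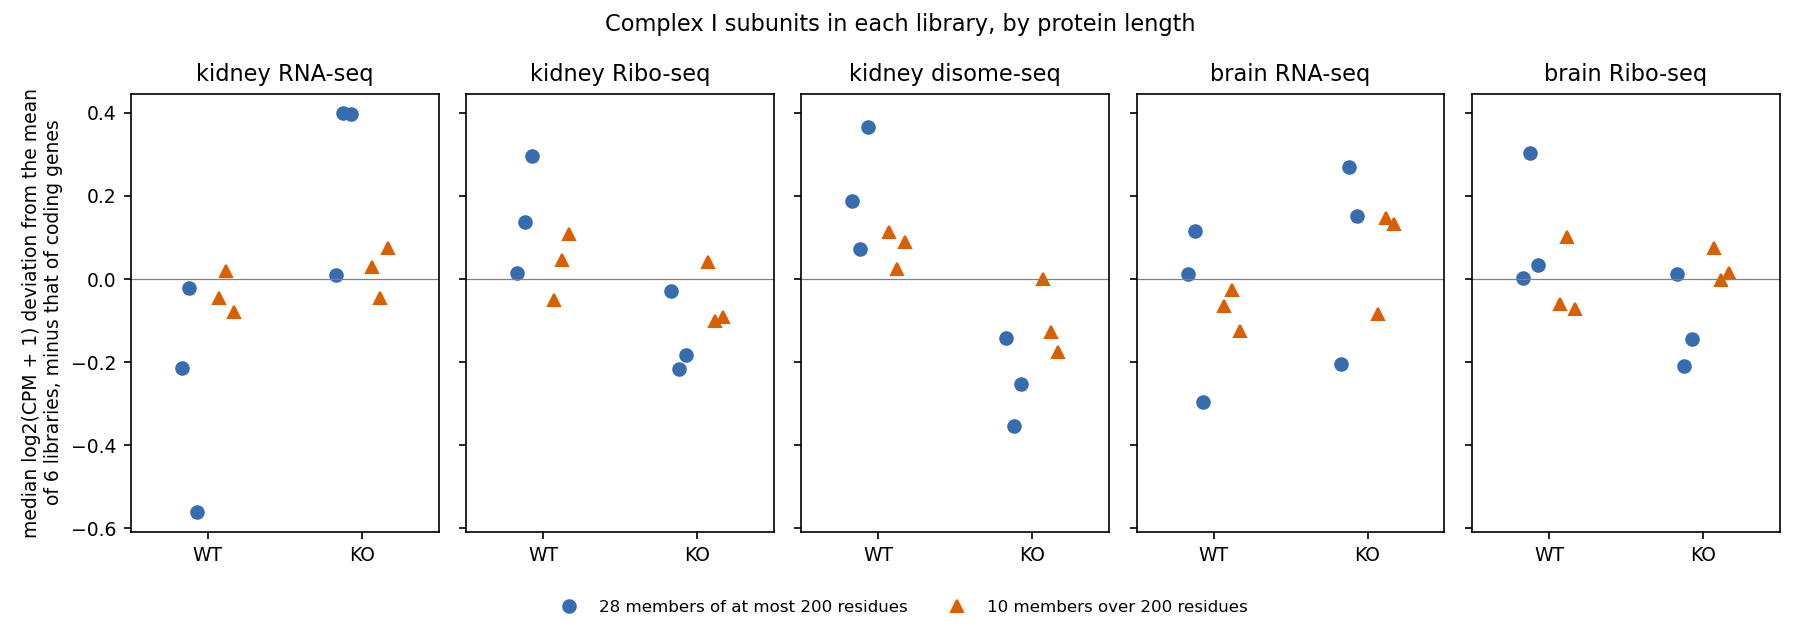
Median log2(CPM + 1) of the 28 short (at most 200 residues) and the 10 longer subunit genes in each library, as the deviation from the mean of the 6 libraries of that tissue and assay less the same median over coding genes. For the short genes, KO kidney RNA-seq replicates 2 and 3 lie highest and WT replicate 3 lowest among the kidney RNA-seq libraries, and KO lies below WT in kidney Ribo-seq and disome-seq while the groups overlap in both brain assays.

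In brain RNA-seq 0 of the 38 genes passed and 0 had an unadjusted p under 0.05, by edgeR or by DESeq2, where 0.0134% of all transcripts were called by edgeR. The median log2 fold change was 0.24, against 0.10 over all coding genes, and the smallest adjusted p was 0.898. Ndufa9, which lies beside the ubiquinone channel, and Ndufa10, a subunit of the proximal membrane arm related to nucleoside kinases, were the only genes with all KO libraries above all WT libraries, at 0.27 and 0.29 on the log2 scale, against 4.13% of transcripts. No gene had them all below, against 5.69%. Ndufb10, in the distal membrane arm, stood at 0.36. Ndufs1 stood at 0.05. The interaction of tissue and genotype in RNA-seq called 0 of the 38 genes (edgeR), with 0 at an unadjusted p under 0.05, and 0 by DESeq2, with 1, against 0.00108% of all transcripts.

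Translation efficiency (TE), footprints relative to mRNA, was read from 1 model over both assays, as the amount by which the KO effect differed between Ribo-seq and RNA-seq. In kidney edgeR called 0 of the 38 genes and 0% of all transcripts at an adjusted p under 0.05. At an unadjusted p under 0.05 there were 29 of the 38 genes, with the share of all transcripts at that p not given. The median was -0.80 on the log2 scale, against -0.12 over all coding genes. Ndufs6 stood at -1.35 ± 0.28, Ndufa1 at -1.21 ± 0.30 and Ndufa6, the next by p, at -1.12 ± 0.29, with adjusted p between 0.11 and 0.117. Ndufs1 was positive at 0.39. DESeq2 called 16 genes lower, with 467 of 15427 coding genes lower. Without KO RNA-seq replicate 1 edgeR called 25 lower, with 1166 of 15746 coding genes lower. Without WT RNA-seq replicate 2 it called 1, Ndufs6. With both KO RNA-seq replicates 2 and 3 left out it called 0, with 8 at an unadjusted p under 0.05. TE was computed with the same RNA-seq libraries, those that stood apart included.

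In brain, edgeR and DESeq2 called 0 of the 38 genes for TE, and edgeR called 0% of all transcripts. At an unadjusted p under 0.05 there were 7 and 8 of the 38, with the share of all transcripts at that p not given. The median was -0.41, against -0.11 over all coding genes. Leaving out 1 library gave a median less that of all coding genes of -0.43 to -0.16. Ndufs1, at 0.35, had the smallest p, then Ndufb10 at -0.56 and Ndufa8 at -0.53, all with an adjusted p of 0.88.

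Marker genes of some kidney cell types moved with genotype as well, while those of others overlapped. Summed thick ascending limb markers were 954 to 1053 CPM in WT and 1288 to 1435 CPM in KO kidney Ribo-seq, proximal tubule markers 4110 to 4790 and 4865 to 6111 CPM, and collecting duct markers 78.3 to 99.0 and 58.5 to 65.7 CPM. In kidney RNA-seq proximal tubule markers were 12304 to 15388 CPM in WT and 15990 to 18111 CPM in KO, thick ascending limb markers 1177 to 1585 and 877 to 1153 CPM, and podocyte markers 24.0 to 29.9 and 12.3 to 14.9 CPM. Distal tubule markers overlapped in kidney Ribo-seq (279 to 433 CPM in WT, 357 to 410 in KO) and RNA-seq (316 to 438 and 332 to 368). Podocyte markers overlapped in kidney Ribo-seq (16.7 to 40.4 and 18.7 to 20.5 CPM). Collecting duct markers overlapped in kidney RNA-seq (96.0 to 122 and 103 to 129 CPM). Blood markers were 329 to 912 CPM in WT and 173 to 225 CPM in KO brain Ribo-seq. In brain RNA-seq blood markers were 420 to 1297 and 219 to 407 CPM, and choroid plexus markers 310 to 336 and 364 to 388 CPM. Neuron, astrocyte, oligodendrocyte and microglia markers overlapped there. In kidney disome-seq thick ascending limb markers were 505 to 732 and 861 to 965 CPM, podocyte markers 13.6 to 16.2 and 0.84 to 5.59, and blood markers 138 to 155 and 74.5 to 99.4. Tubule and collecting duct markers overlapped. The part of these cell types in the subunit results was not tested. In bulk tissue fewer cells of a type cannot be told apart from less RNA per cell.

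Other genes of oxidative phosphorylation, from lists chosen by function, were read beside the subunits. In kidney Ribo-seq of KO against WT 0 of 41 nuclear subunits of complexes III, IV and V passed (median -0.19, 6 at an unadjusted p under 0.05), as did 0 of 17 assembly factors of complex I (median -0.11, 1 unadjusted), 0 of 4 complex II subunits (median -0.12, 0 unadjusted) and 0 of the 7 complex I subunits of mitochondrial DNA (median -0.09, 0 unadjusted). Among 6 regulators of mitochondrial biogenesis, Ppargc1a, a coactivator of nuclear genes for mitochondria, was higher at 0.44 ± 0.11 (edgeR adjusted p = 0.0299). In kidney RNA-seq none passed, with medians of 0.49 for complexes III, IV and V, 0.21 for assembly factors, 0.13 for complex II and 0.09 for the mitochondrial complex I genes. In disome-seq the 7 mitochondrially encoded genes were all positive, with a median of 0.38 and 4 at an unadjusted p under 0.05, and 0 passed.

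Complex I mRNA took a larger part of the counts in WT kidney than in WT brain. By edgeR 34 of the 38 genes were higher in kidney RNA-seq and 2 lower, where 64.1% of transcripts were called, 28.3% higher and 35.8% lower, or 38.2% and 34.8% of coding genes. The median log2 difference was 1.45, against 0.10 over all coding genes, and with library size alone the medians were 1.18 and -0.15. All 7 core subunits were higher, with Ndufv1 at 1.79, Ndufs8 at 1.58, Ndufs1 at 1.55, Ndufv2 at 1.25, Ndufs7 at 0.95 and Ndufs3 at 0.52. Ndufs3 lost its call with library size alone (adjusted p = 0.0651) and with at least 10 counts in every library (adjusted p = 0.0597).

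The largest difference belonged to Ndufv3, with 89.2, 109 and 63.0 CPM in kidney and 25.9, 29.1 and 21.5 CPM in brain RNA-seq, a log2 difference of 2.03 ± 0.27. Ndufa9 had 95.7, 89.5 and 96.9 CPM in kidney and 28.0, 28.5 and 28.2 CPM in brain, a log2 difference of 1.98. Ndufb11 (1.86), an X-linked distal membrane-arm subunit, Ndufa6 (1.83) and Ndufa1 (1.80) followed. The tissues did not overlap for Ndufv3 or Ndufa9. Ndufa4 was higher by 1.75 and Ndufa4l2 by 1.29, the latter at only 1.79 to 2.44 CPM in kidney and 0.82 to 1.06 CPM in brain.

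Both genes that were lower in kidney are among those with near-identical copies. Ndufs5 had 13.1, 13.3 and 11.0 CPM in kidney and 48.3, 52.5 and 38.6 CPM in brain RNA-seq, a log2 difference of -1.65 ± 0.21. Ndufb4 had 14.8, 18.3 and 9.33 CPM against 32.6, 35.2 and 26.9 CPM, a log2 difference of -0.90 ± 0.28. Ndufa12 (0.33) and Ndufab1 (-0.45), which share 76.7% and 100% of their stretches, were the genes that did not pass, and Ndufab1 passed as lower in kidney in 5 of the 7 alternatives that kept all libraries, with adjusted p from 0.000357 (gene sums) to 0.0158 (at least 10 counts in every library), and also without WT brain replicate 3 (0.0257). All kidney libraries lay below all brain libraries for Ndufs5, Ndufb4 and Ndufab1, against 45% of transcripts, and above them for 34 genes, against 25.9%.

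The copies themselves were counted very unevenly between the RNA-seq tissues. BC002163, the copy of Ndufs5 shown above, had 3062, 3370 and 2299 counts in WT brain RNA-seq but 7, 8 and 9 in WT kidney RNA-seq, while it had 786, 569 and 513 in kidney Ribo-seq. Ndufb4c, a copy of Ndufb4, had 2326, 2589 and 1958 counts in brain RNA-seq and 0, 4 and 1 in kidney RNA-seq, against 1657, 987 and 1050 in kidney Ribo-seq. Processed pseudogenes as a class took 1.46% to 1.81% of counts in brain RNA-seq, 3.63% to 4.74% in Ribo-seq and 0.0267% to 0.0437% in kidney RNA-seq. Among mitochondrial complex I genes, mt-Nd4l, whose reading frame overlaps that of mt-Nd4, differed by -9.80 and mt-Nd3 by -4.62 between kidney and brain RNA-seq, whereas Ribo-seq gave 1.47 and 1.57. Whether reads with several matches were counted alike in both RNA-seq sets is not given in the sources used here and was not tested. In the 22 subunit genes with at most 10% shared stretches, all 22 were higher in kidney RNA-seq, with a median of 1.51.

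Footprints were also higher in kidney, with no gene lower. In Ribo-seq 36 of the 38 genes were higher in WT kidney than in WT brain and 0 lower, where 70.9% of transcripts were called, 35% higher and 35.8% lower, and the median log2 difference was 0.91 against 0.02 over all coding genes. Ndufv3, counted over its 468-residue form, led at 1.40 ± 0.14. It had 55.8, 59.4 and 55.2 CPM in kidney and 21.4, 26.6 and 21.0 CPM in brain. Its 104-residue form gave 1.09 and its 86-residue form 0.73, so its rank depends on the form counted. The 468-residue form of Ndufv3 was followed by Ndufv1 (1.28), with 126, 126 and 127 CPM against 55.2, 55.3 and 54.7 CPM. The tissues of both genes lay far apart relative to the spread within each. Ndufa9 (1.26), Ndufb8 (1.25) and Ndufs8 (1.25) came next. DESeq2 gave the same counts. The genes not called by edgeR were Ndufs5, at 0.07 with 36.3, 43.9 and 44.4 CPM in kidney and 39.7, 48.9 and 37.8 CPM in brain, and Ndufa4l2, at 0.31.

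TE differed between the tissues for 9 subunit genes, a share close to that among all coding genes. By edgeR 4 were higher in kidney and 5 lower, where 19.8% of transcripts were called, 11.7% higher and 8.09% lower. Among coding genes 22.9% were called, 10.4% higher and 12.5% lower. The median of the subunit genes was -0.53 against -0.17 over all coding genes. The 4 higher genes were Ndufb4 (1.85), Ndufs5 (1.74), Ndufab1 (1.52) and Ndufs3 (0.68), which share 69.7% to 100% of their stretches with other genes. The 5 lower included Ndufa4 (-1.13), Ndufa6 (-0.97), Ndufa9 (-0.71) and Ndufa10 (-0.69). Among the 22 genes with at most 10% shared stretches 0 were higher and 4 lower. The count ranged from 6 without WT kidney RNA-seq replicate 1 or WT kidney Ribo-seq replicate 1 or 2 to 24 without WT kidney RNA-seq replicate 3, when 20 were lower, with 3009 of 16436 coding genes lower.

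**Figure D5:**
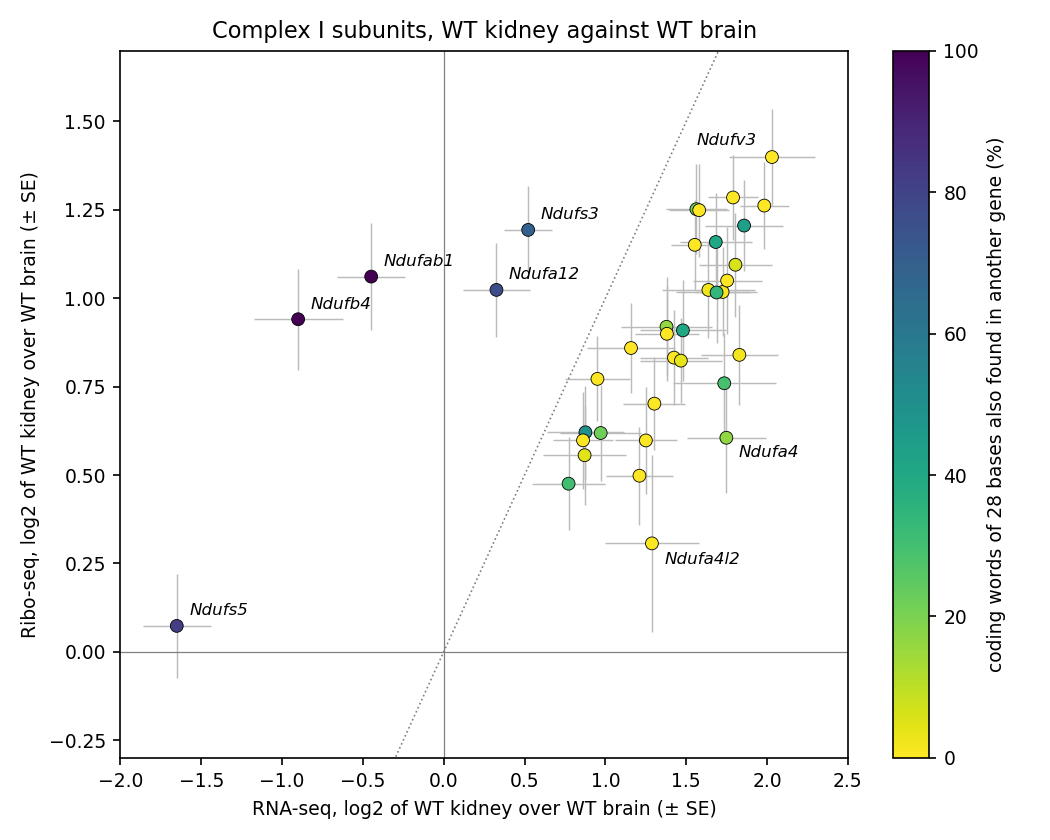
Log2 difference between WT kidney and WT brain for 37 of the 38 genes, RNA-seq on the horizontal axis and Ribo-seq on the vertical axis, coloured by the percentage of 28-base coding stretches shared with other genes, with a dotted line where both are equal. Ndufs5, Ndufb4, Ndufab1, Ndufa12 and Ndufs3 lie to the left of the dotted line and the other plotted genes to its right, with a larger difference in RNA-seq than in Ribo-seq. Bars are the SE.

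Other oxidative phosphorylation genes were also higher in kidney. In RNA-seq 31 of 43 nuclear subunits of complexes III, IV and V were higher and 4 lower, 14 of 17 assembly factors higher, all 4 complex II subunits higher with a median of 2.23, and 4 of 6 regulators higher. In Ribo-seq 38 of 41 subunits of complexes III, IV and V were higher and 1 lower, 15 of 17 assembly factors higher and 1 lower, all 4 complex II subunits higher with a median of 1.76, and all 7 mitochondrially encoded complex I genes higher with a median of 1.57.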

How the data were processed

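Per the labels and the study's methods, the authors trimmed reads with cutadapt, filtered them with the FASTX Toolkit, removed rRNA reads, used STAR for alignment against the transcriptome (GRCm38.p6) and genome (mm10) of the mouse with multimapping reads allowed, and counted with featureCounts of the Subread package, whose versions are not given in the sources used here. The deposited table holds raw counts of reads per transcript in 30 mouse columns, with no normalization. A table of human transcripts with 28 columns of sample values under mouse titles was not used.

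Here 141374 of 142604 transcripts were matched to GENCODE M21. Counts were tested with edgeR 4.0.16 (limma 3.58.1, R 4.3.3): filterByExpr, TMM scaling and the quasi-likelihood F-test over all transcripts of a comparison, adjusted by Benjamini-Hochberg, with 0.05 as the threshold. An SE is the absolute log2 fold change divided by the square root of F. Each comparison used only its own groups (3 libraries each), and TE was the assay-by-condition interaction, scaled within each assay. The tool the study used for TE was not run. CPM are per library size. Counts were not rounded or corrected, and the procedure was tested on simulated data with 200 transcripts changed by 2 on the log2 scale. For KO against WT it recovered 98.5% of them in kidney Ribo-seq, 99% in disome-seq and 97% in brain Ribo-seq. It recovered 55% in kidney and 79.5% in brain RNA-seq, and 45% and 66% for TE. For the tissue-by-genotype interaction it recovered 31.5% in RNA-seq and 77.5% in Ribo-seq. Smaller changes were not simulated. Alternatives were DESeq2 1.42.0, library size alone, no filter, a minimum of 10 counts per library, sums over the coding transcripts of a gene, 1 transcript per gene, the replicate number as a block, and leaving out each library. An added alternative, chosen after seeing the data, left out KO kidney RNA-seq replicates 2 and 3. Every pair of replicates differed beyond counting noise, so none was counted as 1 sample.

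Named genes were the 7 core subunits, Ndufa4, Ndufa4l2, Ndufab1 and Ndufv3, the up to 5 largest rises and 5 largest falls past the threshold in each comparison or, where none passed, the 3 with the smallest p, and the highest and lowest densities. Genes in other sentences were named after their values were seen. The members and lists were chosen with earlier results of these data known, so they are no independent support. Replicate numbers were held to pair libraries where all 3 correlations of deviations from group means were over 0.1. For WT and KO disome-seq they were 0.12, 0.21 and 0.12, and for kidney Ribo-seq and RNA-seq 0.18, 0.27 and 0.25 in WT and 0.14, 0.14 and 0.16 in KO. They were also over 0.1 for WT brain Ribo-seq and RNA-seq (0.19, 0.48 and 0.29) and for KO kidney and brain RNA-seq (0.31, 0.14 and 0.19), and not for the other 8 of the 13 pairings checked. This pairing comes from the data, since the labels give only shared numbers. Values of 1 gene are not reported here, though it stays in the counts and medians.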

Additional observations from a re-analysis of the deposited data

How the results depend on the processing

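No named gene changed sign in an alternative where either fit called it. Of the fold changes of named genes in the alternatives, 2407 kept their sign and call. A further 36 gained a call, 69 lost it, and 141 changed sign with no call in either fit. Medians of the 38 genes less the median of all coding genes moved by less than the spread in 187 of 189 alternatives. Counts of subunit genes called stayed within 1.5 times in 168 of 189. In kidney RNA-seq DESeq2 called 2 genes in place of 0, leaving out 1 library gave 0 to 22, and without KO replicates 2 and 3 the median above all coding genes was 0.21. In kidney Ribo-seq library size alone called 12 in place of 7, gene sums 0, and leaving out 1 library 0 to 5. In disome-seq the fit with no filter called 1 in place of 0, and leaving out 1 library 0 to 1. In brain Ribo-seq DESeq2 and the fit with no filter each called 1 in place of 0. For kidney TE DESeq2 called 16, gene sums 1, 1 transcript per gene 5, and leaving out 1 library 0 to 25, in place of 0. For TE between WT tissues leaving out 1 library gave 6 to 24 in place of 9. Leaving out 1 library gave a median above all coding genes of 0.34 to 0.56 in kidney RNA-seq, -0.31 to -0.14 in kidney Ribo-seq and -0.39 to -0.25 in disome-seq. The cause of these moves was not tested. Where no share of all transcripts or coding genes called in an alternative is given above, its count stands without a background. With the replicate number as a block, disome-seq called 1 gene in place of 0 and kidney Ribo-seq 0 in place of 7, with 14 at an unadjusted p under 0.05, where the numbers did not pair the libraries (correlations of -0.14, 0.05 and 0.01). The block moved no other count by more than 1.5 times.

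Disome-seq libraries were the shallowest, with 1187636 to 3018963 counts per library. Library size alone moved the median of coding genes from 0.10 to -0.06 in kidney RNA-seq and from 0.10 to -0.15 between WT tissues. Reads shared between a subunit gene and its copies cannot be assigned to either from the counts.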
